A study of Mus musculus with 17 samples.

Results

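Rpl11 and 3 of its processed copies, Gm10036, Gm7589 and Gm10288, were followed through 17 RNA-seq libraries of mouse lung. The 4 genes were taken by gene ID from 54146 genes in the files, and all 4 passed the filter on low counts. They were chosen by their shifts between Clic4 knockout (KO) and wild-type (WT) lung in earlier results of the same libraries: one copy higher and another lower in KO, with little change in Rpl11, which lies near Clic4. Their KO and WT values are therefore given as a description, with a standard error (SE) and no test.

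The libraries came from lungs labelled Clic4 KO at day 0 (2 libraries, mice 6 weeks old), WT at day 0 (4 libraries, 6 weeks), KO at day 14 (5 libraries, 8 weeks) and WT at day 14 (6 libraries, 8 weeks). Clic4 encodes a chloride intracellular channel protein, and the series concerns the part of the host's Clic4 in metastasis of breast cancer. The strain label of all 4 groups joins FVB to 6DT1, a name used for a mouse mammary tumour line. The labels do not say what was done between the days, and day and age changed together. Nor do they say which animal gave each library, so p-values measure the spread between these libraries, which may be technical. Group sizes in the series' design text are not those of the sample labels, which were followed here. Libraries held 20607811 to 35743830 expected counts. The KO libraries kept Clic4 at 326 ± 3.54 counts per 1000000 (CPM), against 948 ± 16.6 CPM in WT libraries, at day 0, and at 335 ± 36.03 CPM, against 1038 ± 138 CPM in WT libraries, at day 14 (SD), with no overlap between genotypes. The 11 lung markers were present in every library, from Foxj1 of ciliated cells at 58.9 to 105 CPM to Scgb1a1 of club cells at 12890 to 19830 CPM. Of 10 markers of mammary tissue, the milk protein genes Wap, Csn2 and Csn3 stayed at or under 0.134 CPM, while the epithelial genes Epcam, Krt8, Krt18, Krt19 and Elf5, which lung also expresses, ran from 12.4 to 200.1 CPM. Krt14, a keratin of basal epithelial cells, was at 1.31 ± 0.488 CPM in KO and 0.545 ± 0.0608 CPM in WT at day 0, and at 1.67 ± 0.577 CPM in KO and 0.636 ± 0.219 CPM in WT at day 14, without overlap at either day (SD; log2 1.27 and 1.38, adjusted p = 0.619 and 0.0634 by edgeR). Krt5, the remaining marker of the list, ran from 0.0913 to 2.75 CPM over all libraries. By edgeR it was not among the 4 markers with the smallest p between KO and WT at day 14. None of the 7 markers tested passed by edgeR between KO and WT at either day, and 1 did by DESeq2 at day 14.

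Rpl11 encodes a protein of the large ribosomal subunit (uL5). With Rpl5 and the 5S ribosomal RNA it forms the 5S ribonucleoprotein, which is built into the ribosome and, when free, binds Mdm2 and holds back its action on p53. Ribosomal protein mRNAs are abundant and were often copied back into the genome by reverse transcription, which leaves processed pseudogenes without introns. Reads from such a copy can be nearly the same as reads from the parent gene, so the counting step must divide them between loci.

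Rpl11 (ENSMUSG00000059291.15) lies on the minus strand of GRCm38 at chr4:136028265-136053428, 0.756 Mb from Clic4. Its protein-coding transcript used here has 6 exons and 833 bases, of which 537 are coding (178 codons before the stop), 40 lie in the 5′ UTR and 256 in the 3′ UTR. The annotation holds 10 transcripts of the gene, of 317 to 917 bases. Gm10288 (ENSMUSG00000070343.3, chr3:146838811-146839347, minus strand) is a processed pseudogene of 537 bases with 1 substitution from the Rpl11 coding sequence, G86A, which changes an amino acid. Gm7589 (ENSMUSG00000066592.3, chr9:59145677-59146210, minus strand) has 534 bases and 11 substitutions, of which 7 change an amino acid. Positions count from 1 at the A of the start codon, with the Rpl11 base first. The 11 are C32T, C46T, G57A, G76A, G88A, C143T, G270A, A275G, A333G, A451G and A516G. None of Gm10288, Gm7589 and Gm10036 has a gap against Rpl11 or a stop codon in frame before the end.

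The first 150 coding bases are shown for Rpl11, Gm10288 and Gm7589, because 7 of the 12 differences of both copies fall there, and bases 261 to 350 are shown for Rpl11 and Gm7589. Capitals in Rpl11 mark positions where a copy shown differs, and capitals in a copy mark the changed base. The sequences are those of GENCODE M21 transcripts, 5′ to 3′.
Rpl11 bases 1 to 150: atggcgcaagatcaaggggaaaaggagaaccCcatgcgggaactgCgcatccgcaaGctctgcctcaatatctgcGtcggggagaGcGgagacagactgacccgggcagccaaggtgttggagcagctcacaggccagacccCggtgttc
Gm10288 bases 1 to 150: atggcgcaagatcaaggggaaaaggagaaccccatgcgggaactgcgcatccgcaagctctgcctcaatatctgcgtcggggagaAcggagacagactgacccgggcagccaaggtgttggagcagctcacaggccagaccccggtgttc
Gm7589 bases 1 to 150: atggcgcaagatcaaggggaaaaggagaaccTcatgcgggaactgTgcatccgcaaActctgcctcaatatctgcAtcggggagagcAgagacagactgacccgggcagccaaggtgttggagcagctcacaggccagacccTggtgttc
Rpl11 bases 261 to 350: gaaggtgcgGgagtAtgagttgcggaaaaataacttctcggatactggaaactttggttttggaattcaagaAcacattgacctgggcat
Gm7589 bases 261 to 350: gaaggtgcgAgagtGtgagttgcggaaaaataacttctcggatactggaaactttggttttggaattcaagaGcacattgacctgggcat
Gm10288 stands next to Rpl11 here by a single letter, while Gm7589 differs at 6 places in the first stretch and at 3 in the second.

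The copies differ in how much of them can be told from the parent. Of the windows of 50 bases in Gm10288, 89.8% were identical to Rpl11. In Gm10036, which has 4 substitutions (2 of them amino-acid changing) over 534 bases, 66.4% were identical. In Gm7589 the share was 35.7%. With windows of 100 bases the shares were 80.4% for Gm10288, 39.5% for Gm10036 and 10.3% for Gm7589. Seen from the parent, each of the 488 windows of 50 bases in the Rpl11 coding sequence is found in at least 1 of the 3 copies, and 296 of the 784 windows of the whole transcript (37.8%) are in none of them. The read length is not given in the sources used here, so these shares describe the sequences and not the reads.

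**Figure D1:**
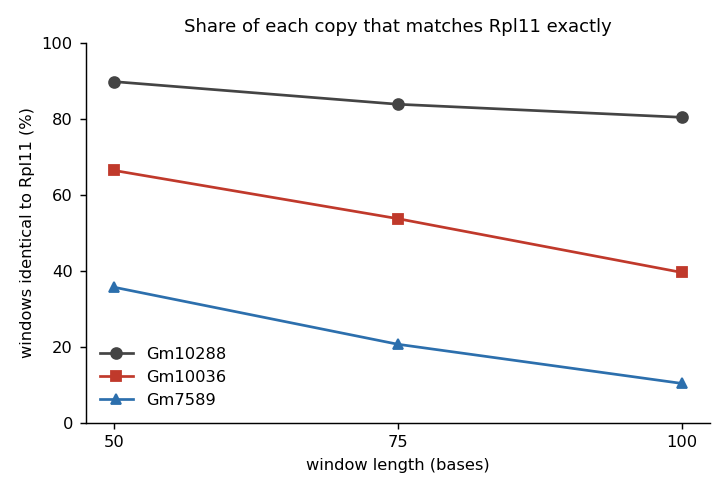
Percent of windows of each copy (vertical axis) that are identical to the Rpl11 transcript, against window length in bases (horizontal axis), 1 line for each copy. At each length Gm10288 has the highest share and Gm7589 the lowest; at 100 bases they stand at 80.4%, 39.5% (Gm10036) and 10.3%.

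The counting step left fractions: the expected counts of all 4 genes were not whole in each of the 17 libraries, which happens where an estimate splits reads between transcripts or loci. On the FPKM scale, which is per length, the order Rpl11, Gm10036, Gm10288, Gm7589 held in 17 of 17 libraries. Rpl11 ran from 435 to 525 FPKM. Gm10036 stood at 2.53 to 5.16 FPKM for each 100 FPKM of Rpl11, Gm10288 at 0.977 to 1.44 and Gm7589 at 0.00190 to 0.575. A further 7 annotated loci match 50% or more of the Rpl11 coding sequence with an identity of 90% or higher (Gm7384, Gm12901, Gm6905, Gm5093, Gm6745, Gm48909 and Gm8900), and 4 of these passed the filter on low counts. Rpl11 itself took 93.3 to 96.4% of all counts of the 11 loci. Expected counts of loci this similar are uncertain, and how the estimate splits reads between them cannot be checked from the deposited values.

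The parent differed little by counts. Rpl11 had 243.4 and 240.1 CPM in KO at day 0, against 260.9, 250.3, 251.1 and 252.2 CPM in WT at day 0. At day 14 it had 234.2, 222.4, 245.1, 238.8 and 265.0 CPM in KO, against 236.7 to 254.2 CPM in WT (median 246). KO lay below WT at day 0, and at day 14 the groups overlapped, with the lowest and the highest value both in KO. The log2 fold change, KO over WT, was -0.06 (SE 0.0636) at day 0 and -0.03 (SE 0.0444) at day 14. On the authors' FPKM the sign was the other way, at 0.04 (SE 0.0545) and 0.12 (SE 0.0381) on the log2(FPKM + 1) scale. In FPKM, Rpl11 averaged 477 ± 0.297 in KO and 464 ± 9.64 in WT at day 0, and 486 ± 27.9 in KO and 448 ± 13.8 in WT at day 14 (SD, n = 2, 4, 5 and 6).

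Gm10036 was higher in KO at both days. It had 8.43 and 8.94 CPM in KO at day 0, against 4.68, 4.98, 5.35 and 5.24 CPM in WT at day 0. At day 14 it had 7.32, 6.52, 7.11, 7.01 and 7.07 CPM in KO, against 4.11 to 5.12 CPM in WT (median 4.51). Each KO library lay above each WT library of its day, and the lowest KO library of either day, at 6.52 CPM, was above the highest WT library, at 5.35 CPM. The log2 fold change, KO over WT, was 0.79 (SE 0.116) at day 0 and 0.61 (SE 0.0838) at day 14. On the FPKM scale, too, the genotypes were apart, at 18.7 to 24.6 FPKM in KO and 11.9 to 14.9 FPKM in WT. Gm10036 is the member whose share of Rpl11-identical windows is in the middle of the 3 copies.

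Gm7589 was lower in KO and near 0 there at day 14. Its expected counts were 6.37 and 9.42 in KO at day 0, against 27.71, 28.75, 22.13 and 19.86 in WT at day 0. At day 14 they were 3.68, 2.39, 1.39, 3.16 and 0.09 in KO, against 18.53 to 30.85 in WT (median 26.4). No KO library reached the lowest WT library at either day, and the KO libraries of day 14 all lay below those of day 0. The mean of Gm7589 was 0.287 ± 0.0840 CPM in KO, against 0.784 ± 0.0666 CPM in WT, at day 0, and 0.0756 ± 0.0496 CPM in KO, against 0.789 ± 0.0871 CPM in WT, at day 14 (SD, n = 2, 4, 5 and 6). The log2 fold change, KO over WT, was -1.51 (SE 0.415) at day 0 and -3.37 (SE 0.349) at day 14. With so few counts in KO the size of the fold depends on the prior count of the fit. Of the 3 copies, Gm7589 carries the most substitutions and the fewest windows in common with Rpl11.

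Gm10288, the copy closest to Rpl11, had a higher mean in KO at both days, with a smaller difference than that of Gm10036. It had 2.14 and 2.34 CPM in KO at day 0, against 1.99, 2.02, 2.00 and 1.66 CPM in WT at day 0. At day 14 it had 2.01, 2.25, 2.24, 1.87 and 1.82 CPM in KO, against 1.52 to 1.84 CPM in WT (median 1.63). KO lay above WT at day 0, and the groups overlapped by 1 KO library at day 14. The log2 fold change, KO over WT, was 0.23 (SE 0.172) at day 0 and 0.29 (SE 0.122) at day 14.

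**Figure D2:**
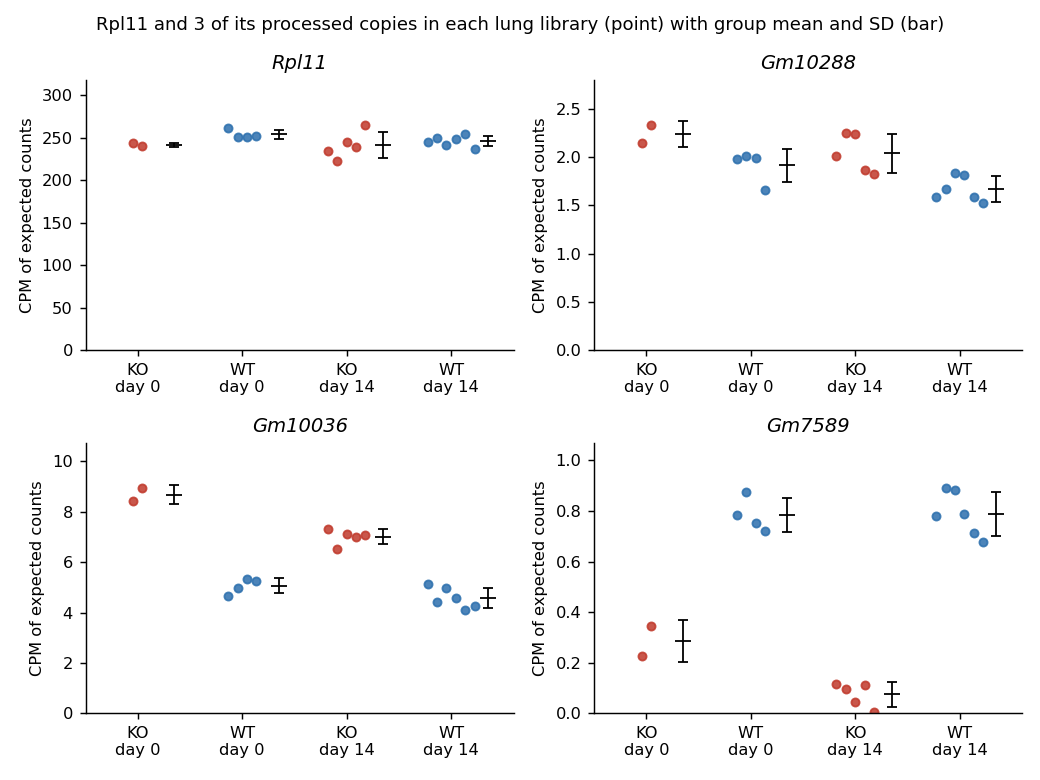
CPM of expected counts (vertical axes, each from 0) of Rpl11, Gm10288, Gm10036 and Gm7589 in each library, with KO in red and WT in blue at day 0 and day 14; bars are the group mean and SD. Rpl11 lies between 222.4 and 265.0 CPM throughout, KO is above WT for Gm10036 and below WT for Gm7589 at both days, and Gm10288 overlaps at day 14.

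Across the genes tested, edgeR's quasi-likelihood test called 5 of 19557 (0.0256%) between KO and WT at day 0 and 21 (0.107%) at day 14; DESeq2 called 25 and 109. The day 0 count fell to 2 without either KO library and to 3 without WT replicate 2. An unadjusted p under 0.05 was found for 1319 of the 19557 genes at day 0 and 1750 at day 14. Gm10036 is among the calls at both days and Gm7589 among those at day 14, but since these contrasts chose the 2 copies, nothing is read from that. Of the other 4 tested loci, none was called: the log2 fold change, KO over WT, was 0.25 at day 0 and 1.15 at day 14 for Gm48909, 0.97 and 0.71 for Gm6905, 0.53 and 0.39 for Gm5093, and 0.45 and 0.02 for Gm7384. Gm48909, an incomplete copy with 381 bases at 98.7% identity, had 0.892 ± 0.127 CPM in KO and 0.393 ± 0.126 CPM in WT at day 14 without overlap (SD, n = 5 and 6; adjusted p = 0.0967 by edgeR). Of the 7 tested copies 6 had a positive difference at both days and Gm7589 a negative one. These signs held under each tool, scaling, filter and unit in which they could be fitted. As 3 of the 7 were chosen by their shifts and each fit uses the same libraries, this split is no independent measure. Of 419 tested pseudogenes of other ribosomal protein genes, 268 had a positive difference at day 0 and 159 at day 14. Without a filter Gm6745, at most 0.414 CPM in every library, had negative estimates like Gm7589, of -1.40 at day 0 and -0.77 at day 14. The other 2 copies under the filter had estimates of both signs without it, Gm12901 of 1.04 at day 0 and -0.88 at day 14, and Gm8900 of -0.14 at day 0 and 1.42 at day 14.

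The copies together held more counts in KO, while by counts the sum with the parent differed by less than its SE; by FPKM it did not. All 10 copies together held 17.1 ± 0.290 CPM in KO and 11.9 ± 0.567 CPM in WT at day 0, and 13.6 ± 0.639 CPM in KO and 10.8 ± 0.823 CPM in WT at day 14 (SD, n = 2, 4, 5 and 6). Rpl11 and the copies summed to 258.9 ± 2.60 CPM in KO and 265.6 ± 4.51 CPM in WT at day 0, and to 254.7 ± 16.2 CPM in KO and 256.4 ± 6.04 CPM in WT at day 14. The log2 fold change of this sum, KO over WT, was -0.03 (SE 0.0624) at day 0 and -0.01 (SE 0.0436) at day 14 by counts, and 0.07 (SE 0.0525) and 0.14 (SE 0.0367) on the log2(FPKM + 1) scale. Since 3 of the copies were chosen by their shifts, these sums are no independent measure.

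**Figure D3:**
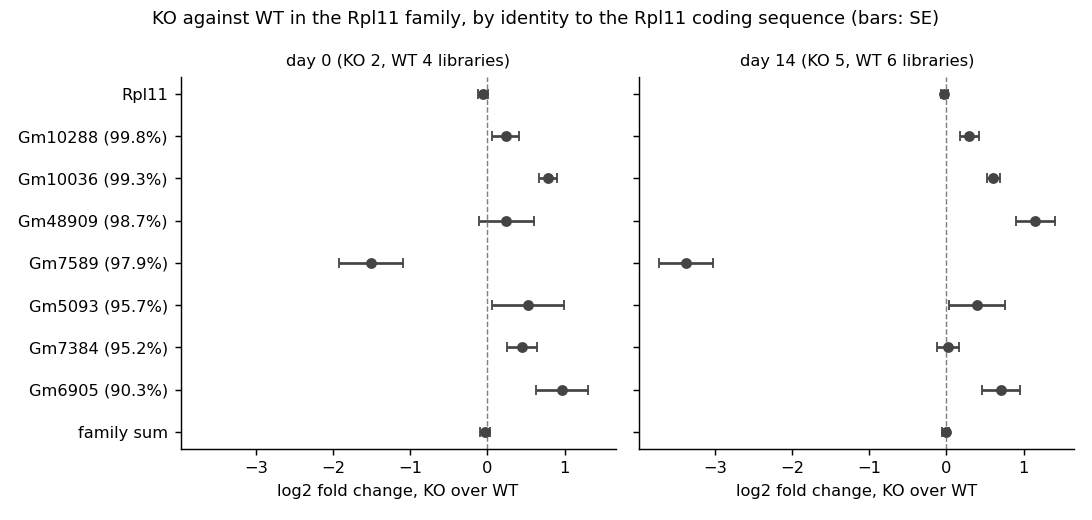
The log2 fold change, KO over WT (horizontal axis), of Rpl11, the 7 tested copies ordered by percent identity to the Rpl11 coding sequence, and the family sum, at day 0 (left) and day 14 (right); bars are the SE of the edgeR fit. Gm7589 stands at -1.51 and -3.37, Gm10036 at 0.79 and 0.61, and Rpl11 and the sum lie within 1 SE of 0.

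The opposite signs of Rpl11 by counts and by FPKM come with a difference in gene length between the 2 deposited tables. Expected count, FPKM and library total together give the length by which each gene was divided in each library, called the effective length here; the measure was added after the values were seen. For Rpl11 it was 510.5 and 504.1 bases in KO at day 0, against 546.6, 547.5, 549.9 and 542.0 bases in WT at day 0. At day 14 it was 486.2, 496.5, 495.8, 497.7 and 504.5 bases in KO, against 539.7 to 559.3 bases in WT. Each of the 7 KO libraries lay below each of the 10 WT libraries, with KO at 92.8% of the WT mean at day 0 and at 90.4% at day 14. RSEM gives a gene with several transcripts the mean of their lengths weighted by their estimated levels, so this length follows which transcripts the estimate favours.

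The copies, annotated with a single transcript each, show how much of this length moves with the library alone. Gm10036 ran from 346.5 to 366.8 bases in KO and from 344.7 to 364.8 bases in WT, and Gm10288 from 346.4 to 366.6 bases in KO and from 344.3 to 365.0 bases in WT. The ratio of the Rpl11 length to that of Gm10036 was 1.39 to 1.43 in KO and 1.49 to 1.57 in WT, so the genotypes did not overlap in the ratio either. Among 9514 genes with at least 5 FPKM and 100 counts in each library, 2 were shorter in all KO than in all WT libraries (0.021%), Rpl11 and Dusp6, a phosphatase of ERK kinases. Dusp6 had 1979 ± 27.7 bases in KO and 2089 ± 46.4 bases in WT (SD, n = 7 and 10).

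**Figure D4:**
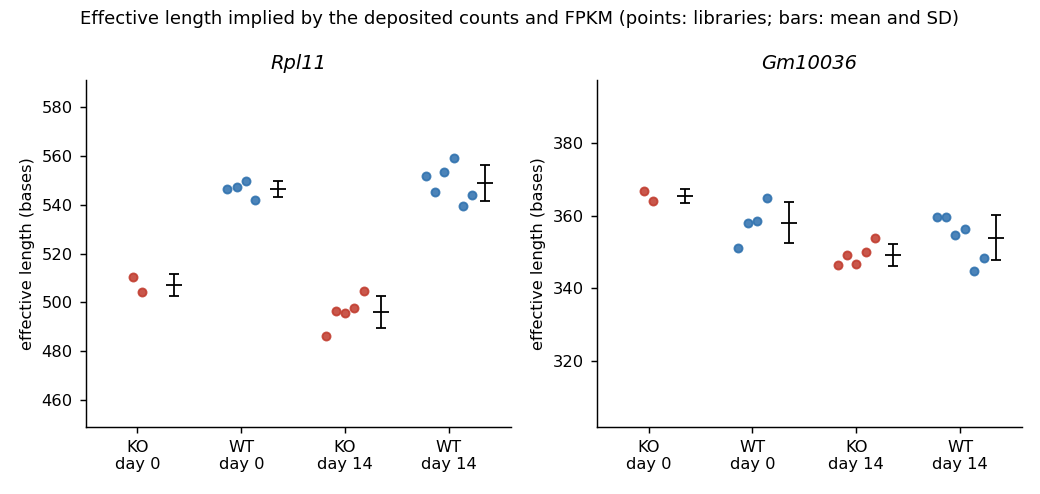
Effective length in bases (vertical axes, not from 0) of Rpl11 (left) and of Gm10036 (right) in each library, with group mean and SD, KO in red and WT in blue. For Rpl11 the KO libraries end at 510.5 bases and the WT libraries begin at 539.7, while for Gm10036 the genotypes overlap.

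The change with time was not the contrast that chose the genes, but it rests on the same libraries, so for the members it is given with its SE and no p. None of the 19557 genes (0.0%) was called by edgeR between day 14 and day 0 in WT, and none (0.0%) in KO; unadjusted p lay under 0.05 for 1772 genes in WT and 1770 in KO. DESeq2 called 113 genes in WT and 93 in KO, and limma-voom 1 in WT and none in KO, and no member was among them. In KO, Gm10036 averaged 7.01 ± 0.297 CPM at day 14 and 8.68 ± 0.361 CPM at day 0 (SD, n = 5 and 2), without overlap, a log2 difference of -0.31 (SE 0.113). In WT it averaged 4.58 ± 0.402 CPM at day 14 and 5.06 ± 0.300 CPM at day 0 (SD, n = 6 and 4), with overlap, a log2 difference of -0.13 (SE 0.0899).

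In KO, Gm7589 had the largest estimate with time of the 4 genes. Its log2 difference there, day 14 over day 0, was -1.84 (SE 0.500), with 2 libraries at day 0. In WT the difference was 0.02 (SE 0.262). Whether the difference between genotypes itself differed between the days was not tested. Rpl11 moved by 0.00017 in KO (SE 0.0614) and by -0.03 in WT (SE 0.0473), and Gm10288 by -0.13 (SE 0.167) in KO and -0.19 (SE 0.130) in WT, all with overlapping groups.

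The genes that surround Rpl11 included some that differed by genotype. Of 37 genes within 500 kb, 25 were tested. At day 14, 3 were called by edgeR beside 0.107% of all genes, 4 by DESeq2 and 3 by limma-voom. By edgeR, unadjusted p lay under 0.05 for 14 of the 25 at day 14 and 12 at day 0. Among all 19557 genes it did so for 1750 and 1319. The log2 differences of the 25 ran from -2.47 to 0.63 at day 14 and from -7.51 to 0.77 at day 0. Pnrc2, a cofactor of mRNA decapping, fell to 51.7 ± 5.58 CPM in KO, against 83.0 ± 8.63 CPM in WT (log2 -0.68, SE 0.0758, adjusted p = 0.000205 by edgeR), and it was also lower at day 0 (log2 -0.67, SE 0.110, adjusted p = 0.0343 by edgeR). Zfp46, a zinc finger gene, fell to 25.9 ± 3.03 CPM in KO, against 39.9 ± 4.41 CPM in WT (log2 -0.62, SE 0.0779, adjusted p = 0.000691 by edgeR). Asap3, an activator of Arf GTP hydrolysis, rose to 21.7 ± 4.87 CPM in KO, against 14.0 ± 1.35 CPM in WT (log2 0.63, SE 0.118, adjusted p = 0.0449 by edgeR). These 3 had SDs over 5 KO and 6 WT libraries, with no overlap. The nearest tested gene, Eloa, a subunit of elongin 6.50 kb away, had a log2 difference of 0.04 (SE 0.0422, adjusted p = 0.835 by edgeR), and Id3, an inhibitor of basic helix-loop-helix factors 90.1 kb away on the other side, one of 0.44 (SE 0.138, adjusted p = 0.367 by edgeR).

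The copies' own neighbours were not called. Gm10288 lies 13.0 kb from Ttll7 and 25.8 kb from Prkacb, with log2 differences, KO over WT at day 14, of -0.15 (SE 0.0602) and -0.08 (SE 0.0456). Gm7589 lies 109.2 kb from Neo1 and 145.3 kb from Adpgk, with differences of 0.01 (SE 0.0567) and -0.05 (SE 0.0608). Gm10036, at chr18:15832794-15833327 on the plus strand, lies 155.0 kb from the pseudogene Gm4835 and 421.8 kb from Aqp4, with differences of -0.47 (SE 0.197) and 0.33 (SE 0.106). Adjusted p ran from 0.377 upward by edgeR in all 6.

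No gene of the ribosome lists, which leave out Rpl11, passed the test. Of 46 genes of the large subunit other than Rpl11, none was called by edgeR, DESeq2 or limma-voom between KO and WT at day 14, and 1 had an unadjusted p under 0.05. Their median log2 difference was 0.03, with 37 positive, against a median of 0.001 over all genes. Of 32 genes of the small subunit none was called by the 3 tools either, 2 had an unadjusted p under 0.05, and the median was 0.03 with 30 positive. The largest differences in these lists were those of Rps2 (0.11, SE 0.0438) and Rplp1 (0.11, SE 0.0512). At day 0 the medians were 0.003 and -0.02, with no call in either list by the 3 tools and unadjusted p under 0.05 for 1 and 0 genes.

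The partners of Rpl11 in the 5S ribonucleoprotein and the p53 route did not pass it either. At day 14 the level of Rpl5 was 473 ± 28.6 CPM in KO, against 462 ± 9.35 CPM in WT. That of Mdm2, the ligase bound by Rpl11, was 74.5 ± 5.45 CPM in KO, against 75.5 ± 3.24 CPM in WT, and that of Trp53, which encodes p53, 44.7 ± 3.23 CPM in KO, against 44.1 ± 1.56 CPM in WT (SD, n = 5 and 6). Of 12 genes of 5S ribonucleoprotein assembly and Mdm2 control none was called at day 14 or day 0 by edgeR, DESeq2 or limma-voom, and 0 and 1 had an unadjusted p under 0.05. Of 20 p53 targets none was called by the 3 tools, with an unadjusted p under 0.05 for 3 at day 14 and 4 at day 0, beside 1750 and 1319 of all 19557 genes. The target with the smallest p at day 14 was Ccng1, a cyclin, at 112 ± 4.80 CPM in KO and 103 ± 2.74 CPM in WT (log2 0.12, SE 0.0453, adjusted p = 0.442 by edgeR). Its KO libraries lay above WT without overlap at both days, with a log2 difference of 0.21 at day 0 (SE 0.0644, adjusted p = 0.619 by edgeR). Of the 20 targets, 14 were positive and 6 negative at day 0, and 13 positive and 7 negative at day 14. With time in KO, Mdm4, a relative of Mdm2, was called by DESeq2 (adjusted p = 0.00599) but not by edgeR (log2 0.31, SE 0.0642, adjusted p = 0.158) or limma-voom (adjusted p = 0.194). At day 0 it had 133 ± 8.24 CPM in 2 KO libraries and 160 ± 3.51 CPM in WT, without overlap. That difference was not called (log2 -0.25, SE 0.0661, adjusted p = 0.549 by edgeR). At day 14 Mdm4 had 165 ± 9.69 CPM in KO and 161 ± 8.89 CPM in WT, with overlap. With time in WT its log2 difference was 0.02 (SE 0.0487). Mdm4 was named after its values were seen.

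Pseudogenes of the other ribosomal protein genes did not pass the test between genotypes. Of 1043 in the files 419 were tested, and none was called between KO and WT at day 0 or day 14 by edgeR, DESeq2 or limma-voom, with an unadjusted p under 0.05 for 26 and 23. The median log2 difference, KO over WT, was 0.10 at day 0 and -0.07 at day 14. The estimates ran from -8.15 to 8.72 at day 0 and from -7.76 to 1.14 at day 14. The copy with the smallest p at day 14, Gm12732, had 0.676 ± 0.0970 CPM in KO and 1.18 ± 0.229 CPM in WT (log2 -0.81, SE 0.181, adjusted p = 0.113 by edgeR; SD, n = 5 and 6). At the same day Gm10036 and Gm7589 stood at 0.61 and -3.37, both within the range of the 419. As both were chosen for their shifts, no test sets them against these copies. With time in KO, day 14 over day 0, 307 of the 419 had a negative difference, with a median of -0.27, against 0.01 over all genes. None was called by edgeR or limma-voom and 3 by DESeq2, and 72 had an unadjusted p under 0.05. The difference of Gm10036 in KO, -0.31, was close to that median in KO, which rests on 2 libraries at day 0. In WT, day 14 over day 0, 278 of the 419 had a negative difference too, with a median of -0.087, against 0.0016 over all genes. Gm10036 stood at -0.13 in WT.

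Markers of the tissue and of other cell types were summed to set beside the copies. Summed lung markers ran from 41110 to 41300 CPM in KO and from 35550 to 39570 CPM in WT at day 0, and from 37030 to 39850 CPM in KO and from 34470 to 39460 CPM in WT at day 14. The 10 lymphocyte markers summed to 79.9 to 130 CPM in KO and 156 to 245 CPM in WT at day 0, without overlap, and to 92.7 to 196 CPM in KO and 106 to 229 CPM in WT at day 14. The day 0 values rest on 2 KO libraries. None of the 10 was called between KO and WT at either day by edgeR, DESeq2 or limma-voom. By edgeR, unadjusted p lay under 0.05 for 6 at day 0 and 1 at day 14. The 8 adipose markers summed to 52.8 to 142 CPM in KO and 36.6 to 52.7 CPM in WT at day 0, and overlapped at day 14. No adipose marker was called at either day by the same tools, with an unadjusted p under 0.05 for 6 at day 0 and 0 at day 14. The sum of 8 proliferation markers, and that of 8 markers of blood and heart, overlapped between genotypes at both days. All 8 proliferation markers had negative differences, KO over WT, at day 0 (median log2 -0.73), and 6 did at day 14 (median -0.06). None of them was called at either day by edgeR, DESeq2 or limma-voom. The sum of blood and heart markers is mostly haemoglobin. Its heart genes had negative differences, KO over WT at day 14, of -0.58 for Tnnt2, -0.56 for Myh6 and -0.46 for Myl7, while Hba-a1, a haemoglobin gene, had 0.59; none was called by edgeR, and 1 of the list was by DESeq2. In bulk lung, fewer cells of a type and less RNA per cell cannot be told apart. The part of these markers in the values of the copies was not tested.

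The genes whose log2 CPM ran most like each member over the 17 libraries differed between members. For Gm7589 they were Clic4 (Pearson r = 0.91), Man1c1 (r = 0.91) and Stab1 (r = 0.90), and for Gm10036 Cemip (r = 0.92), Selenon (r = 0.89) and Slc30a2 (r = 0.86). The genotypes are apart in both copies. As deviations from the group means, r was 0.36, 0.34 and 0.45 for the genes of Gm7589 and 0.41, -0.29 and -0.08 for those of Gm10036. Clic4, Man1c1, Selenon and Slc30a2 lie on chromosome 4, which also holds Rpl11, while Stab1 lies on chromosome 14 and Cemip on chromosome 7. For Rpl11, whose genotypes overlap over both days together, Man1a (r = 0.86), Gm15609 (r = 0.83) and Serbp1 (r = 0.81) kept r of 0.85, 0.79 and 0.78 within groups. For Gm10288 they were Sema3c (r = 0.83), Slc26a10 (r = 0.82) and Itln1 (r = 0.81), with 0.57, 0.51 and 0.73 within groups. All these values share the libraries and their depth, and the genes were picked as the highest of all, so r is a description. Between the copies, Gm10036 and Gm7589 had r = -0.76 over the 17 libraries and 0.07 within groups. Between parent and copies, within groups, r was -0.62 for Gm7589, 0.05 for Gm10036 and -0.14 for Gm10288. The value for Gm7589 includes the KO libraries of day 14, where it held 0.09 to 3.68 counts. The library with 0.09 counts also had the highest Rpl11 of all, at 265.0 CPM. What lies behind this r was not tested.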

How the data were processed

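Per the labels, total RNA of mouse lung was extracted with Qiagen RNeasy and made into Illumina TruSeq v4 libraries, 17 in all. Build mm10, STAR 2.5.3, RSEM 1.3.0 and limma 3.38.3 stand in the submitters' processing notes; the annotation release, read length and strand setting are not given in the sources used here. The authors deposited 1 file of expected counts per library and 1 table of FPKM; that the first are expected counts follows from their fractions. Expected counts were rounded to whole numbers for tests, and CPM are expected counts per 1000000 of a library's total. edgeR 4.0.16 (TMM, filterByExpr, robust quasi-likelihood fit, 19557 genes, 4 groups, 1 model) gave log2 differences and Benjamini-Hochberg adjusted p over all genes, called under 0.05; DESeq2 1.42.0, limma-voom (limma 3.58.1), other scalings, filters and FPKM with pseudocounts of 1 and 0.1 were alternatives. SE is the absolute log2 difference over the square root of F. Depth (20607811 to 35743830 counts) limits Gm7589 most.

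Copies were found with BLAST 2.17.0 among GENCODE M21 transcripts (GRCm38, which mm10 names); 54079 of the 54146 gene IDs are in that reference with the version dropped, and Gm10036 has another version there. The files list Gm7589 and Gm10288 under clone names. Effective length is expected count divided by FPKM and by the library total in units of 1000000, times 1000; genes whose length was greater in KO are not reported here. Genes were named by rule: the members, other copies, nearest tested genes, up to 4 of a list by p at day 14, and the 3 most correlated. Members, lists and rule were chosen with earlier results of these data known; Rpl5, Mdm2, Mdm4 and Trp53 were named afterwards. The test code was checked on simulated data.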

Additional observations from a re-analysis of the deposited data

Results flagged for a closer look

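Gm10288 in WT at day 0 had 1 library that stood apart: replicate 4, at 1.66 CPM, while the next lowest of the 4 libraries was at 1.99 CPM. The gap was 0.918 of the range of the group. The check covered 15 sets of 4 to 6 libraries, and chance alone marks about 1 in 20 such sets. The value bears on the log2 difference of Gm10288 between KO and WT at day 0, which was 0.23 with all libraries and 0.17 without replicate 4. As each library was left out in turn it ran from 0.15, without KO replicate 2, to 0.32, without KO replicate 1.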

How the results depend on the processing

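Gm10036 and Gm10288 stayed positive in KO against WT at both days, and Gm7589 negative, under every alternative run. On log2(FPKM + 1), with and without a filter, Gm7589 stood at -0.84 at day 0 and -1.42 at day 14. Rpl11 stood at 0.038 and 0.12, and the family sum at 0.074 and 0.14, on log2(FPKM + 1) with and without a filter and on log2(FPKM + 0.1); effective length differs by genotype. Rpl11 between the days in KO, close to 0, was -0.00025 with DESeq2, -0.0030 with limma-voom and -0.0037 with no filter. Leaving out 1 library gave -0.050 to 0.015 for Rpl11 between the days in KO, and -0.019 to 0.087 for Gm7589 between the days in WT.

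Genes called between KO and WT numbered 5 at day 0 (25 with DESeq2, 17 on FPKM without a filter, 2 to 7 as libraries were left out) and 21 at day 14 (109 with DESeq2, 15 to 27). The low counts at day 0 were 2 without either KO library and 3 without WT replicate 2. Between the days none was called in WT, but 113 with DESeq2, 1 with limma-voom, 3 with RLE size factors, 5 with no filter and 0 to 22 as libraries were left out (22 without WT day 14 replicate 5, 1 without replicate 6). None was called in KO, but 93 with DESeq2, 4 on FPKM with either pseudocount, 26 on FPKM without a filter and 0 to 12 as libraries were left out (12 without KO day 14 replicate 2, and 1, 1 and 2 without WT day 14 replicates 2, 3 and 6). The causes of these changes were not tested. With floors of 1 FPKM and 20 counts (13432 genes) or 20 FPKM and 500 counts (3977 genes), chosen after seeing the data, 2 genes, Rpl11 among them, were again shorter in all KO libraries. No paired analysis was possible because replicate numbers only follow accession order. Depth limits Gm7589, with at most 9.42 counts in a KO library.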
